A study of Mus musculus with 18 samples.

Results

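MEFs that had been kept in Scm and then grown in Rcm for 24 h (S-Rcm 24 h) were compared with MEFs kept in Rcm throughout, to ask which genes still differed from steady Rcm a day after the cells had left Scm. MEFs are mouse embryonic fibroblasts, here of wild-type genotype. The methods of the study name them as a cell line obtained from the American Type Culture Collection. Rcm is complete medium with R-FBS, a fetal bovine serum that made MEFs resistant to ferroptosis, and Scm is complete medium with S-FBS, a serum that left them sensitive. The comparison takes 6 of the 18 libraries of the series, 3 of S-Rcm 24 h and 3 of Rcm, chosen by the titles of the samples. The other groups, of 3 libraries each, are steady Scm, S-Rcm 12 h, and the opposite exchange, in which MEFs left Rcm for Scm (R-Scm 12 h and R-Scm 24 h). They serve here only to place the difference. No ferroptosis inducer is named in the labels of any library. The labels do not say that the steady cultures received fresh medium when the others were exchanged. Nor do they say that the Scm and Rcm cultures were split from 1 culture of the MEF line. The medium of origin, the lineage of the culture and the exchange itself therefore cannot be told apart within this comparison. The methods of the study state in general that its culture experiments had independent replicates. The labels do not say this of the 3 libraries of a group, so that p values measure the spread between libraries, which may in part be technical.

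Ferroptosis is a form of cell death driven by iron and the peroxidation of membrane lipids. Serum supplies lipids, lipoproteins, selenium and growth factors, and cells adjust sterol and fatty acid synthesis to it through the SREBP transcription factors. Fibroblasts also keep a low tonic expression of interferon-stimulated genes: type I interferon acts through the receptor chains IFNAR1 and IFNAR2 on a complex that holds STAT2 and IRF9, which binds a short element (ISRE) in the promoters of antiviral genes, among them its own components.

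Levels are given as CPM, counts scaled to the size of the library with TMM factors, and differences as the log2 ratio (log2 fold change) of S-Rcm 24 h over Rcm from edgeR's quasi-likelihood model of all 18 libraries, ± its standard error (SE). A gene was taken as a DEG where the log2 ratio was over 0.58 in size and p, adjusted after Benjamini and Hochberg over 15381 genes, was under 0.05. Of these genes, 34 were DEGs (0.221%), 10 higher in S-Rcm 24 h (0.065%) and 24 lower (0.156%). At an unadjusted p under 0.05 there were 481 higher (3.13%) and 670 lower (4.36%) genes, and the median of all genes tested was -0.0061. The libraries of the groups did not overlap for 1964 genes (12.8%), and among them were all 34 DEGs, which is partly built into the choice of DEGs. Total counts were 15037323 to 19787163 in the 6 libraries, the 50 most abundant genes took 9.93% to 11.1% of them, and the biological coefficient of variation was 0.173.

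**Figure D1:**
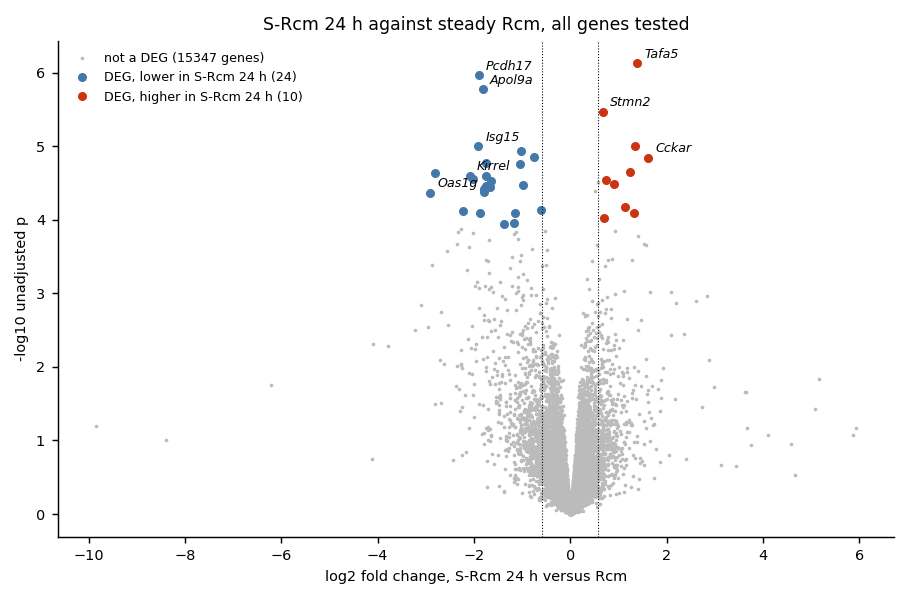
Each point is 1 of the 15381 genes tested, with the log2 fold change of S-Rcm 24 h over Rcm on the x axis, the negative log10 of the unadjusted p on the y axis, and dotted lines at the fold threshold of 0.58. The 24 lower DEGs in blue and the 10 higher DEGs in red lie at the top, with Tafa5, Pcdh17 and Apol9a highest.

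The number of DEGs rested on single libraries and on the tool. In edgeR it fell to 0 without S-Rcm 24 h replicate 3, although 880 genes were at an unadjusted p under 0.05, and to 0 without Rcm replicate 2, with 762 such genes. It was 8 without S-Rcm 24 h replicate 2, 10 without Rcm replicate 1, 22 without Rcm replicate 3 and 38 without S-Rcm 24 h replicate 1. DESeq2 on the same 18 libraries called 108 genes, 29 higher and 79 lower, which included all 34, and with each of the 6 libraries left out it called 58 to 220, which included 33 or 34 of the 34. Of the 33 DEGs described by name, 9 kept their call in none of the 6 edgeR fits with a library left out: Icmt, Rtp4, Irf7, Ifit3, Bst2, Fmnl1, Igtp, Tap1 and Kirrel. A further 8 kept it in 1 of these fits, 12 in 2, and Apol9a, Stmn2, Pcdh17 and Tafa5 in 4. At an adjusted p under 0.01 edgeR kept 3 genes, Pcdh17, Apol9a and Tafa5. The spread behind each p is estimated from all 18 libraries, and some outside the comparison were uneven. Kirrel was at 368, 389 and 91.4 CPM in S-Rcm 12 h, and Ifit3 at 39.2, 12.6 and 11.1 CPM in R-Scm 24 h. No fit of this comparison left out a single library of another group, so their part in the lost calls was not tested. With edgeR on the compared groups alone 46 genes were DEGs, 20 of them among the 34.

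Interferon-stimulated genes held 9 of the 24 lower DEGs. Of a list of 36 textbook members, all of which were tested, these 9 were the DEGs, all lower in S-Rcm 24 h, where 0.156% of all genes were lower DEGs. At an unadjusted p under 0.05, 31 of the 36 were lower and 0 higher, and the libraries did not overlap for 33, all lower in S-Rcm 24 h. The median log2 ratio of the list was -1.62, with 35 members negative and Irf1 at 0.17. The mean log2 CPM of the list was 3.01, 2.66 and 2.67 in the 3 libraries of S-Rcm 24 h and 4.26, 4.44 and 4.12 in those of Rcm. All 3 exchanged libraries were below all 3 of Rcm, and above the 2.01, 2.05 and 1.94 of Scm. The median stayed between -1.76 and -1.61 in every alternative fit, while the number of DEGs in the list ran from 0 to 26. It was 0 at an adjusted p under 0.01 with all libraries kept. It was also 0 without S-Rcm 24 h replicate 2, without S-Rcm 24 h replicate 3 and without Rcm replicate 2, and 24 with DESeq2 on the 18 libraries. The list and the interest in it came from earlier results of these data, so that its direction here is a description.

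**Figure D2:**
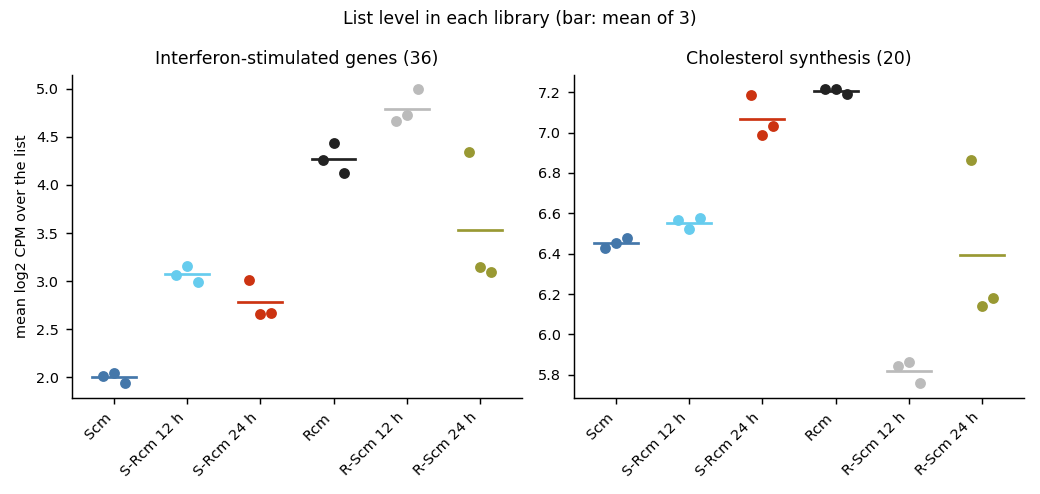
The y axis gives the mean log2 CPM of the 36 interferon-stimulated genes (left) and of the 20 cholesterol synthesis genes (right) in each library, with a bar at the mean of the 3 libraries of a group. In S-Rcm 24 h the interferon list lies between 2.66 and 3.01, below every Rcm library, while the cholesterol list, at 6.99 to 7.19, lies just under the 7.19 to 7.21 of Rcm without overlap.

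Among the factors of the pathway, Irf7 (ENSMUSG00000025498, chromosome 7, 141262706 to 141266481 on GRCm38), the transcription factor that amplifies interferon responses, was at 3.31, 3.63 and 2.85 CPM in S-Rcm 24 h and 9.98, 10.4 and 12.8 CPM in Rcm. Every exchanged library was far below every Rcm library, and the log2 ratio was -1.75 ± 0.31 (SE, adjusted p = 0.0239). Irf7 was at 2.73, 2.91 and 3.09 CPM in Scm, a range that the exchanged libraries overlapped. Stat2 and Irf9, of the complex that binds the ISRE, had log2 ratios of -1.001 (adjusted p = 0.293) and -1.08 (adjusted p = 0.161), short of the threshold. The receptor genes did not follow, with log2 ratios of 0.003 (adjusted p = 0.996) for Ifnar1 and 0.15 (adjusted p = 0.744) for Ifnar2. Ifnb1, the gene of interferon beta, had 0 counts in all 6 libraries, which allows up to 3 counts per library, so that a difference in it was not detectable at this depth. Irf1, an interferon gamma target that also responds to other signals, was at 27.2, 36.7 and 25.3 CPM against 23.6, 29.4 and 26.4 CPM, and its libraries overlapped.

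Antiviral effectors were among the lower DEGs. Isg15 (ENSMUSG00000035692, chromosome 4, 156199424 to 156200818), a ubiquitin-like modifier, was at 10.4, 9.78 and 10.9 CPM in S-Rcm 24 h and 31.5, 36 and 49.4 CPM in Rcm, a log2 ratio of -1.91 ± 0.30 (SE, adjusted p = 0.0239). The exchanged libraries lay close together and far below Rcm, though still above the 6.47, 5.68 and 7.01 CPM of Scm. Bst2 (ENSMUSG00000046718, chromosome 8, 71534255 to 71537456), tetherin, which holds budding virions at the cell surface, was the most abundant DEG of the list, with 59.8, 47.5 and 52.4 CPM against 152, 173 and 185 CPM and a log2 ratio of -1.68 ± 0.29 (SE, adjusted p = 0.0239). Ifit3 (ENSMUSG00000074896, chromosome 19, 34583531 to 34588731), of the family that binds foreign RNA ends, was at 11.4, 8.77 and 10.2 CPM against 37, 40.9 and 33.3 CPM, a log2 ratio of -1.87 ± 0.35 (SE, adjusted p = 0.0379). For both genes the groups were clearly apart. Ifi44 was at 6.2, 3.41 and 3.29 CPM against 23.9, 23.6 and 13.1 CPM, a log2 ratio of -2.23 ± 0.42 (SE, adjusted p = 0.0379), with Rcm replicate 3 the lowest of its group.

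Several lower DEGs outside the list are also known to be induced by interferon, and they are named here by the rule for DEGs. Oas1g, of the oligoadenylate synthetases that activate RNase L, had the lowest log2 ratio among DEGs, -2.90 ± 0.53 (SE, adjusted p = 0.0244), on only 6 to 13 counts per library in S-Rcm 24 h. Its levels were 0.783, 0.335 and 0.506 CPM against 3.49, 4.32 and 4.42 CPM. Ifi207, of the family of nuclear DNA-binding interferon-inducible proteins, had 3 to 9 counts per library in S-Rcm 24 h and a log2 ratio of -2.82 ± 0.48 (SE, adjusted p = 0.0239). Dhx58, the RNA sensor LGP2, was at 5.42, 3.8 and 4.68 CPM against 14.7, 15.6 and 13.6 CPM, a log2 ratio of -1.66 (adjusted p = 0.0239), and Cmpk2, a mitochondrial nucleotide kinase, was at -1.76 (adjusted p = 0.0239). The other RNA sensors of the family, Ddx58 (RIG-I) and Ifih1 (MDA5), both of the list, were no DEGs, at -1.22 (adjusted p = 0.154) and -1.47 (adjusted p = 0.617). Apol9a (ENSMUSG00000057346, chromosome 15, 77403789 to 77411135), an apolipoprotein L family member, was at 14.8, 10.3 and 13.7 CPM against 42.8, 43.6 and 50.2 CPM, a log2 ratio of -1.82 ± 0.25 (SE, adjusted p = 0.00858). Rtp4 was at -1.79 (adjusted p = 0.0244) and Ifi35 at -0.74 (adjusted p = 0.0239). In each DEG of this paragraph every library of S-Rcm 24 h was below every library of Rcm.

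Of the interferon-inducible GTPases of the immunity-related and guanylate-binding families, which act against intracellular parasites and viruses, the list holds 7. Of these, Igtp, Iigp1 and Gbp2 were DEGs. Irgm1, Irgm2, Gbp3 and Gbp7 were not, at -1.22 (adjusted p = 0.321), -1.80 (adjusted p = 0.401), -1.76 (adjusted p = 0.089) and -2.11 (adjusted p = 0.0706), although the libraries did not overlap in any of these 4. Igtp was at 4.82, 4.58 and 5.88 CPM against 17.8, 17.9 and 16.1 CPM, a log2 ratio of -1.76 ± 0.30 (SE, adjusted p = 0.0239). Iigp1 was at 1.02, 0.447 and 1.14 CPM in S-Rcm 24 h and 4.37, 4.06 and 2.18 CPM in Rcm, a log2 ratio of -2.02 (adjusted p = 0.0239). Gbp2, of the list, and Gbp9, outside it, both guanylate-binding proteins, were at -1.37 (adjusted p = 0.049) and -1.80 (adjusted p = 0.0241). Gbp2 kept its call in 4 of 10 alternative settings that left no library of the comparison out. Among those where it lost the call were RLE and upper-quartile scaling. Rnf213, a very large ubiquitin ligase with ATPase activity, was at 225, 166 and 161 CPM against 439.7, 429.9 and 366 CPM, a log2 ratio of -1.16 (adjusted p = 0.0489). It also kept its call in 4 of the 10 settings, and lost it in the same ones as Gbp2.

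In antigen presentation, Tap1, a subunit of the peptide transporter, was at 7.05, 7.21 and 6.64 CPM against 14.3, 17.2 and 14.8 CPM, a log2 ratio of -1.15 (adjusted p = 0.0379). H2-Q4, a nonclassical class I gene, was at -1.02 (adjusted p = 0.0239). The classical chain genes H2-K1 and H2-D1 and their partner B2m were at -0.33 (adjusted p = 0.677), -0.23 (adjusted p = 0.707) and -0.46 (adjusted p = 0.392), none a DEG. Cxcl10 (ENSMUSG00000034855, chromosome 5, 92346638 to 92348889), a chemokine that attracts T cells, was at 14.8, 10.4 and 9.68 CPM against 22.8, 25.8 and 23.2 CPM, a log2 ratio of -1.04 ± 0.17 (SE, adjusted p = 0.0239). Unlike the 9 DEGs of the interferon list it was also a DEG against Scm, at 1.08 ± 0.18 (SE, adjusted p = 0.0165), so that its level lay between the steady cultures and apart from both. Cxcl10 was the only DEG of the list of chemokines and acute-phase genes, of which 15 were tested.

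Some of these genes have near copies or neighbours that could share their reads, since the treatment of reads with several alignments and of strand is not given in the sources used here. Apol9a shares 1529 bases at 98.5% identity with Apol9b, Ifit3 1700 bases at 97.8% with Ifit3b, Oas1g 1861 bases at 97.6% with Oas1a, Gbp9 278 bases at 95.7% with Gbp4, H2-Q4 509 bases at 96.9% with H2-Q6 and Isg15 482 bases at 95.2% with AC151275.1. Exons of Igtp overlap those of Irgm2 on the same strand by 162 bases, and exons of Tap1 those of Psmb9 on the opposite strand by 212 bases. The values of these genes may therefore hold reads of their partners, and most of the partners named so far are interferon-inducible themselves. H2-Q4 also shares shorter stretches with many further genes, such as 292 bases at 96.6% identity with Nudcd1. Exons of Rtp4 overlap Gm45338 on the same strand by 296 bases. For these further partners no such statement is made.

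**Figure D3:**
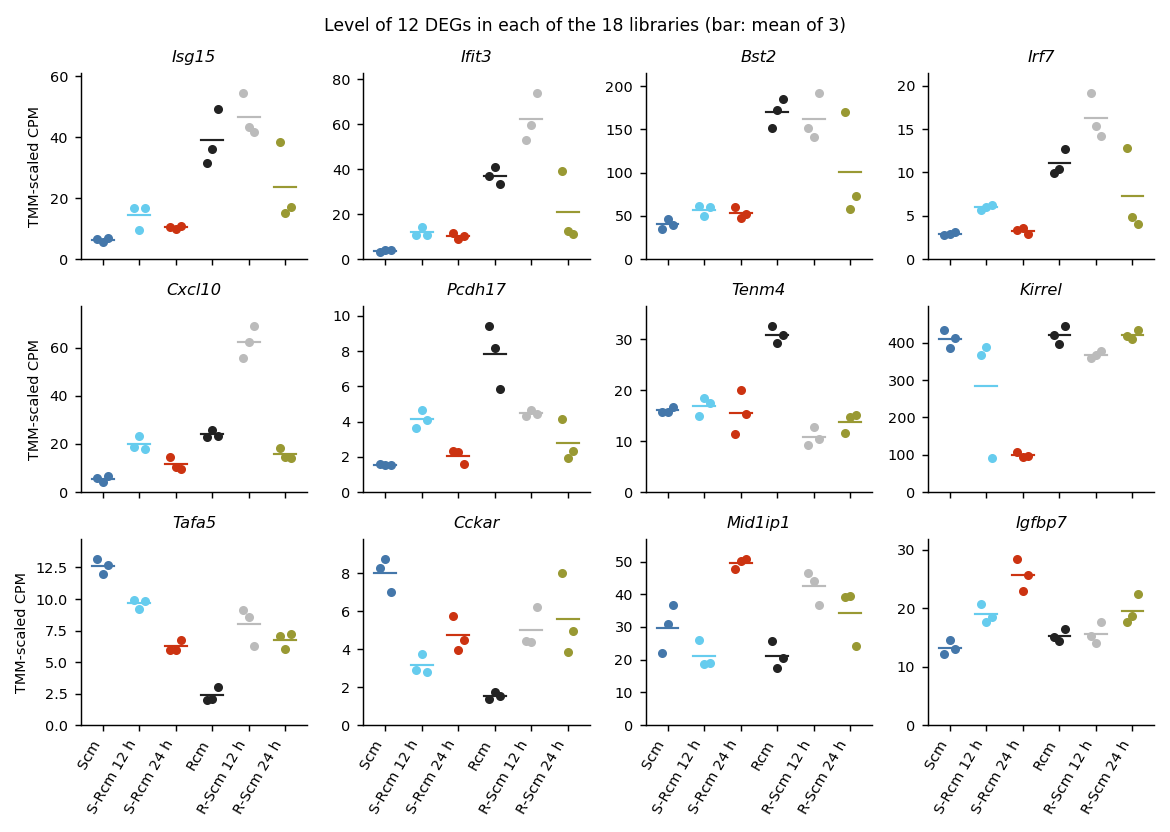
TMM-scaled CPM (y axis, starting at 0) of 12 DEGs in each of the 18 libraries, by group on the x axis, with a bar at the mean of 3 libraries. Isg15, Ifit3, Bst2, Irf7, Cxcl10, Pcdh17, Tenm4 and Kirrel are lower in S-Rcm 24 h (red) than in Rcm (black), and Tafa5, Cckar, Mid1ip1 and Igfbp7 are higher, with no overlap in any panel.

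The promoters of the lower DEGs were read from RefSeq (GRCm38.p6) over the 250 bases before the start of the gene, since these genes moved together. Of the 34 DEGs, 27 had a promoter in the table. The ISRE was searched as GAAA, any 2 bases and GAAA on both strands, a pattern chosen after the DEGs were seen. It stood in 936 of 27025 genes of the table (3.46%), in 10 of the 20 lower DEGs with a promoter, and in 0 of the 7 higher ones. In the list of 36 it stood in 15 of the 30 genes with a promoter. Of the other patterns, AP-1 (TGANTCA) was in 5 of the 20 lower DEGs against 7.82% of all genes, CCAAT in 7 against 37.5%, TATAAA in 2 against 14.3%, and the E-box CACGTG and the sterol element core (TCAC, any base, CCAC) in 0 against 6.86% and 1.22%. A match describes letters in this window and does not show that a factor binds there. The 160 bases before the start are shown for 4 of the 10 lower DEGs with a match. Matches to the ISRE are in capitals, 5′ to 3′ along the gene's strand. Lower DEGs without a match, among them Irf7, Tap1 and Ifi44, are not shown.
Isg15, chr4:156200819-156200978, minus strand: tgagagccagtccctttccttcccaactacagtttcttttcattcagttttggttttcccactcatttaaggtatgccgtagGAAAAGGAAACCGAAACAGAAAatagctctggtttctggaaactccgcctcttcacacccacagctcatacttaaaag
Ifit3, chr19:34583369-34583528, plus strand: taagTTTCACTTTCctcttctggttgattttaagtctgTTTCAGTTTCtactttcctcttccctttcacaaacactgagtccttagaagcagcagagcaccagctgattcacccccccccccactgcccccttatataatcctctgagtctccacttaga
Gbp2, chr3:142620503-142620662, plus strand: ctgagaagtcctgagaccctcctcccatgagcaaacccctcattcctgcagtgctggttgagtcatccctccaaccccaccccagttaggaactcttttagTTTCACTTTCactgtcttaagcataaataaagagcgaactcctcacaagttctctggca
Igtp, chr11:58199396-58199555, plus strand: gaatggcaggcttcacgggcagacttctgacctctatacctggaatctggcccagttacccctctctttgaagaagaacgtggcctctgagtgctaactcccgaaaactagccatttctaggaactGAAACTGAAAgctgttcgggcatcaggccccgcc
In Isg15 there are 3 overlapping matches that begin at -78, -72 and -66 from the start, in Ifit3 matches at -156 and -122, in Gbp2 at -59 and in Igtp at -34.

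The remaining 4 lower DEGs are not known as interferon-stimulated genes. Pcdh17 (ENSMUSG00000035566, chromosome 14, 84443563 to 84539002), a protocadherin of cell adhesion, was at 2.35, 2.29 and 1.58 CPM in S-Rcm 24 h and 9.42, 8.18 and 5.84 CPM in Rcm, a log2 ratio of -1.90 ± 0.26 (SE, adjusted p = 0.00831). It was among the DEGs with the smallest p, and at 1.6, 1.53 and 1.51 CPM in Scm it was close to the exchanged level. In S-Rcm 12 h, however, Pcdh17 was at 3.61, 4.65 and 4.10 CPM, above every library of Scm and of S-Rcm 24 h. Its log2 difference of S-Rcm 24 h over S-Rcm 12 h was -0.985 (adjusted p = 0.145 in edgeR), short of the threshold. Tenm4, a teneurin of cell contacts, was at 11.4, 20.002 and 15.4 CPM against 32.6, 29.2 and 30.8 CPM, a log2 ratio of -0.98 (adjusted p = 0.0239), and Fmnl1, a formin that builds actin filaments, was at -0.61 (adjusted p = 0.0379). An exon of Tenm4 overlaps C230038L03Rik on the opposite strand by 988 bases.

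Kirrel (ENSMUSG00000041734, chromosome 3, 87078593 to 87174747), an adhesion protein of the immunoglobulin superfamily related to nephrin, had another pattern. It was at 106, 95.1 and 95.5 CPM in S-Rcm 24 h and 421, 396 and 445 CPM in Rcm, a log2 ratio of -2.09 ± 0.34 (SE, adjusted p = 0.0239), and at 434, 385 and 414 CPM in Scm, from which it differed by -2.05 ± 0.34 (SE, adjusted p = 0.0167). The exchanged libraries were thus below both steady cultures, between which its log2 fold change was 0.03. In S-Rcm 12 h it was at 368, 389 and 91.4 CPM: replicate 3 of that group stood with S-Rcm 24 h and the other two with the steady cultures. In R-Scm 24 h it was at 419, 411 and 435 CPM. What sets these 4 libraries apart in this gene was not tested. Its log2 ratio stayed between -2.14 and -2.04 in every alternative fit, while in edgeR the call was lost with any 1 of the 6 libraries left out, as for 8 other DEGs.

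Of the 10 higher DEGs, 9 are described here, from no single list. Tafa5 (ENSMUSG00000054863, chromosome 15, 87544299 to 87759364), a secreted chemokine-like protein best known in brain, had the smallest p of the comparison. It was at 5.96, 5.98 and 6.77 CPM in S-Rcm 24 h and 2.0, 2.06 and 3.05 CPM in Rcm, a log2 ratio of 1.38 ± 0.18 (SE, adjusted p = 0.00831). With 13.2, 12 and 12.7 CPM in Scm, from which it also differed (-1.02 (adjusted p = 0.0136)), it lay between the steady cultures. Cckar (ENSMUSG00000029193, chromosome 5, 53697776 to 53707705), the cholecystokinin A receptor, was at 5.72, 3.97 and 4.49 CPM against 1.37, 1.73 and 1.52 CPM, a log2 ratio of 1.61 ± 0.27 (SE, adjusted p = 0.0239). Slc6a4, the serotonin transporter, was at 5.18, 7.54 and 8.1 CPM against 3.37, 3.59 and 4.11 CPM in Rcm and 14.7, 16.6 and 14.6 CPM in Scm, a log2 ratio of 0.91 (adjusted p = 0.0239). All 3 genes were lowest in Rcm and highest in Scm, with the exchanged libraries between them and no overlap.

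Anks1b, a scaffold protein with ankyrin repeats, had a log2 ratio of 1.32 (adjusted p = 0.0379). Six2, a homeobox transcription factor of mesenchyme, was at 1.14 (adjusted p = 0.0363) on 52 to 66 counts per library in S-Rcm 24 h. Stmn2, a tubulin-binding stathmin, was at 52.1, 47 and 49.3 CPM against 33.1, 31.7 and 28.3 CPM, a log2 ratio of 0.67 ± 0.10 (SE, adjusted p = 0.013). Icmt, the methyltransferase that finishes the processing of prenylated proteins, was at 102, 106 and 108 CPM against 68.5, 57.2 and 69.3 CPM, a log2 ratio of 0.70 (adjusted p = 0.0428). Against Scm the log2 fold changes of these 4 genes ran from -0.32 (Stmn2) to 0.18 (Six2), and none was a DEG.

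Mid1ip1 and Igfbp7 were above both steady cultures. Mid1ip1 (ENSMUSG00000008035, chromosome X, 10715013 to 10719690), which activates acetyl-CoA carboxylase in fatty acid synthesis, was at 47.9, 50.1 and 50.7 CPM in S-Rcm 24 h, 25.6, 17.4 and 20.4 CPM in Rcm and 22, 30.8 and 36.6 CPM in Scm. Its log2 ratio was 1.23 ± 0.21 (SE, adjusted p = 0.0239) against Rcm and 0.74 ± 0.21 (SE, adjusted p = 0.187) against Scm, where it was no DEG. Igfbp7, a secreted binding protein of insulin-like growth factors, was at 28.4, 22.9 and 25.8 CPM, 15, 14.4 and 16.5 CPM and 12.1, 14.6 and 13.1 CPM in the same order. It was a DEG against both, at 0.75 (adjusted p = 0.0239) against Rcm and 0.95 (adjusted p = 0.00478) against Scm, and the only DEG among 12 tested genes of the IGF system. Exons of Mid1ip1 overlap the antisense gene Gm14493 by 543 bases, and those of Igfbp7 overlap Polr2b on the opposite strand by 85 bases.

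To place the 34 DEGs, their distance from Scm was taken in the same fit. The comparisons share libraries, so that the values are only set side by side. Between S-Rcm 24 h and Scm 52 genes were DEGs (0.338%), and between Rcm and Scm 354 (2.3%). Of the 34 genes, 5 were DEGs against Scm: Kirrel, Cxcl10, Slc6a4, Tafa5 and Igfbp7. Against this, 30 of the 34 were DEGs between the steady cultures, and for 25 the mean of S-Rcm 24 h lay between those of Scm and Rcm (20 of the 24 lower and 5 of the 10 higher DEGs). The interferon list had a median of -2.54 for Scm over Rcm and -1.62 for S-Rcm 24 h over Rcm. It was 0.78 for S-Rcm 24 h over Scm, with 0 of the 36 genes a DEG there in edgeR and 32 DEGs between the steady cultures. A gene that was no DEG against Scm is not shown to be at its Scm level: Gbp9 was at 1.56 (adjusted p = 0.117) and Ifit3 at 1.47 (adjusted p = 0.148) against Scm.

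**Figure D4:**
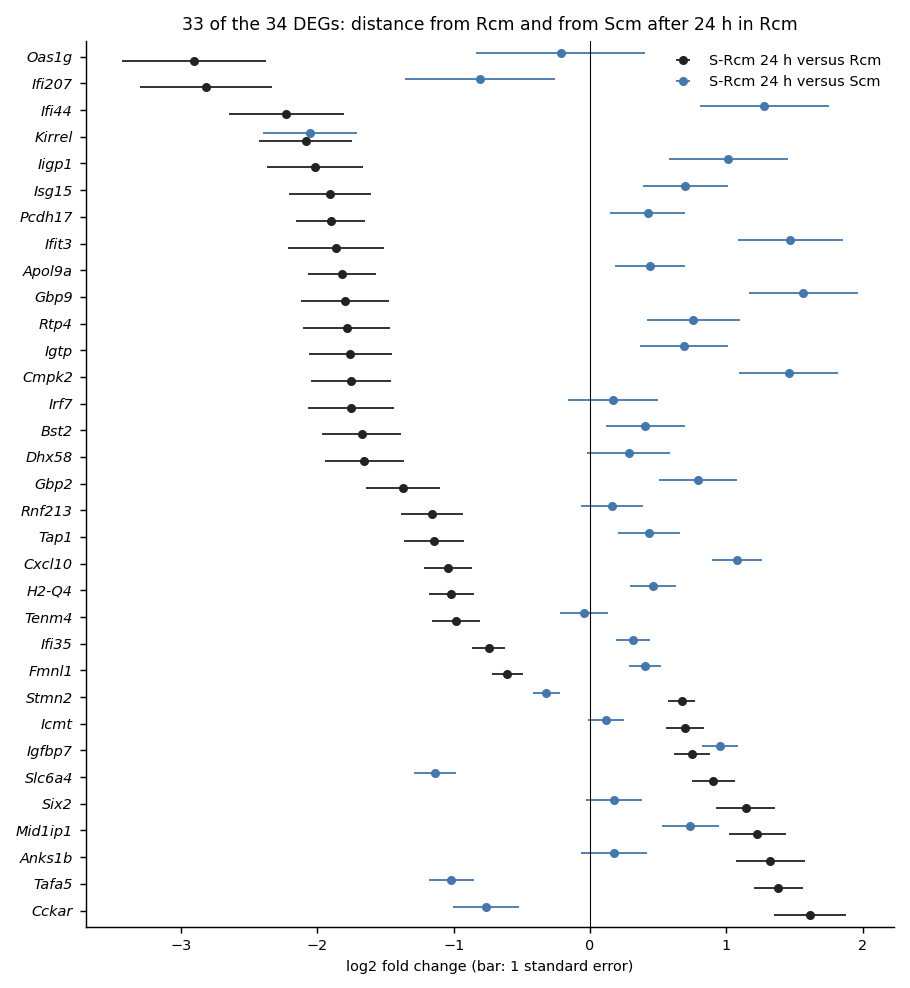
For each of 33 of the 34 DEGs (y axis), the x axis gives the log2 fold change of S-Rcm 24 h over Rcm (black) and over Scm (blue) with 1 standard error from edgeR. For most of the lower genes the black point is far to the left and the blue point lies near or to the right of 0, while for Kirrel both points lie near -2.1.

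At 12 h after the exchange 134 genes were DEGs against Rcm (0.871%), where 34 were at 24 h. Both comparisons share the Rcm libraries. The change between the times was tested directly as S-Rcm 24 h against S-Rcm 12 h, with 24 DEGs (0.156%). The median of the interferon list was -1.28 at 12 h and -1.62 at 24 h relative to Rcm, and 0 of its 36 members were DEGs between the times. In CPM, Isg15 was at 16.6, 9.69 and 16.7 at 12 h, Irf7 at 5.7, 6.0 and 6.26 and Cxcl10 at 18.5, 23.3 and 17.7. All 3 libraries of Irf7 and Cxcl10 were lower at 24 h than at 12 h, with log2 differences of -0.87 (adjusted p = 0.364) and -0.77 (adjusted p = 0.0912), short of the threshold. Mid1ip1 was the only one of the 34 DEGs that passed between the times, at 26, 18.5 and 18.8 CPM at 12 h and a log2 difference of 1.23 (adjusted p = 0.0215).

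The opposite exchange was used to ask whether these genes stood alike, relative to the steady culture of their present medium, after either exchange. The difference between S-Rcm 24 h over Rcm and R-Scm 24 h over Scm compares each exchanged group with the steady culture of the medium it was in, and its terms share no library. It gave 144 DEGs (0.936%), 22 positive and 122 negative, and 29 of the 34 genes were among them, 23 of the 24 lower and 6 of the 10 higher. The 34 were chosen by the first term of this difference, so that their share is largely built in and nothing is read from it. A gene equally far above, or equally far below, its present steady culture in both exchanges would have a difference near 0. Where the steady cultures differ, a gene still at its starting level after both exchanges would have a large one. The difference therefore does not tell how far a gene moved from its starting medium. Of the interferon list 31 of 36 were DEGs in this difference, with a median of -3.45. That list was chosen with earlier results of these data known, and its median for Scm over Rcm was -2.54. Isg15 and Tafa5, given below, are among the 34. These values are therefore largely built in as well, and only describe where each exchanged group stood. The list was below its steady culture in S-Rcm 24 h (median -1.62) and above it in R-Scm 24 h (median 1.88). Isg15 had a difference of -3.79 ± 0.43 (SE, adjusted p = 0.000307), made of -1.91 in S-Rcm 24 h and 1.88 in R-Scm 24 h. Tafa5 had a difference of 2.28 ± 0.24 (SE, adjusted p = 0.000117), made of 1.38 and -0.90. In both genes, each exchanged group stood away from its present medium on the side of the medium it had left.

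The 5 DEGs without a call in the difference were Tenm4, Icmt, Igfbp7, Mid1ip1 and Anks1b. Igfbp7 was 0.75 above Rcm and 0.56 above Scm after the respective exchanges, with a difference of 0.18 (adjusted p = 0.708). Tenm4 was -0.98 and -0.21, with a difference of -0.77 (adjusted p = 0.219). A missed threshold does not show that the distances were alike for these genes. The libraries of R-Scm 24 h were uneven: the mean log2 CPM of the interferon list was 4.35 in replicate 1 and 3.15 and 3.10 in the others. Replicate 1 also stood apart in cholesterol synthesis (6.86 against 6.14 and 6.18) and in fatty acid synthesis and desaturation (6.82 against 6.17 and 6.31). In each of these lists it was nearer to the Rcm libraries than the others were. The contractile list (7.34 against 7.49 and 7.58) and DNA replication and mitosis (7.67 against 7.77 and 7.74) were less uneven. Without replicate 1 the difference gave 116 DEGs and 26 of the list, with Isg15 at -3.25, and without replicate 3 it gave 233 DEGs and 32 of the list.

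The genes of sterol synthesis, which differed between the steady cultures, had nearly reached the level of Rcm. Of the cholesterol synthesis list 20 of 20 were tested and 0 were DEGs in edgeR against Rcm, with 1 gene at an unadjusted p under 0.05 (Idi1, -0.50, lower) and 0 DEGs with DESeq2. The median was -0.13 against Rcm, where it had been -0.67 at 12 h and stood at -0.78 for Scm over Rcm, with 13 DEGs between the steady cultures. The mean log2 CPM of the list was 7.19, 6.99 and 7.03 in S-Rcm 24 h and 7.21, 7.21 and 7.19 in Rcm, against 6.43 to 6.48 in Scm. Fdps, farnesyl diphosphate synthase, was at 370.5, 322 and 336 CPM against 384, 392 and 389 CPM in Rcm, a log2 ratio of -0.18 (adjusted p = 0.803), and Hmgcs1, the synthase before the rate-limiting reductase, was at 511, 373 and 382 CPM against 514, 533 and 434 CPM. The groups overlapped for Hmgcs1 and did not overlap for Fdps. Srebf1 and Srebf2, the genes of the SREBP factors, were at 0.12 (adjusted p = 0.805) and 0.17 (adjusted p = 0.798). The median of the list over Scm was 0.61. For sterol synthesis S-Rcm 24 h was thus nearer to Rcm than to Scm, and for the interferon list (-1.62 and 0.78) nearer to Scm than to Rcm.

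The lists of lipid and ferroptosis genes, none of which holds Mid1ip1, had no DEG. Fatty acid synthesis and desaturation (19 tested) had a median of -0.08 with 0 genes at an unadjusted p under 0.05, and Scd1, the desaturase that makes monounsaturated fatty acids, was at 432, 335 and 348 CPM against 439, 444 and 409 CPM, a log2 ratio of -0.21 (adjusted p = 0.809). Ferroptosis defence and glutathione (18 tested) had a median of -0.009 with 0 genes at an unadjusted p under 0.05. Gpx4, the peroxidase that reduces lipid hydroperoxides, was at 126, 114 and 124 CPM against 128, 129 and 125 CPM, a log2 ratio of -0.06 (adjusted p = 0.87). Slc7a11, the cystine importer, varied widely within both groups, from 17.5 to 53.8 CPM, at -0.11 (adjusted p = 0.961), and Acsl4, which activates polyunsaturated fatty acids, was at -0.10 (adjusted p = 0.871). Abca1, the cholesterol exporter, was at -0.66 (adjusted p = 0.637), not past the threshold although its libraries did not overlap. Apoh had at most 0.392 CPM in any library and was not tested. Sterol uptake and SREBP regulation (14), LXR and cholesterol export (9), PPAR targets and fatty acid oxidation (18) and iron handling (10) had medians of -0.08, -0.12, -0.05 and -0.06, with 1, 1, 2 and 1 lower and 0, 0, 0 and 1 higher genes at an unadjusted p under 0.05.

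Of the other lists, the contractile and SRF/YAP genes had the largest positive median, 0.23 over 19 genes, with 8 higher and 1 lower at an unadjusted p under 0.05 and 0 DEGs. BMP and TGF-beta readouts (18 genes) followed at 0.17 with 4 higher and 1 lower, matrix proteases and inhibitors (16) at 0.16 with 0, and immediate-early genes (19) at 0.15 with 1 higher. The ATF4 amino acid stress genes (20), glycolysis and hypoxia genes (21), p53 targets (14), retinoid genes (11) and the IGF system (12) had medians of 0.12, 0.09, 0.09, 0.08 and 0.07. Chemokines and acute-phase genes (15), glucocorticoid and clock genes (17), DNA replication and mitosis (26), Wnt ligands and feedback (16), collagens and matrix (23) and metallothioneins and zinc transporters (9) had medians of 0.03, 0.03, 0.02, 0.01, -0.008 and -0.009. The 13 mitochondrially encoded genes were all negative, with a median of -0.21 and 0 at an unadjusted p under 0.05. Aldh1a1, a retinaldehyde dehydrogenase and the lowest member of the retinoid list, was at 5.54, 6.37 and 5.19 CPM against 10.9, 14.6 and 12.1 CPM, a log2 ratio of -1.14 (adjusted p = 0.0552), just short of the threshold with no overlap.

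**Figure D5:**
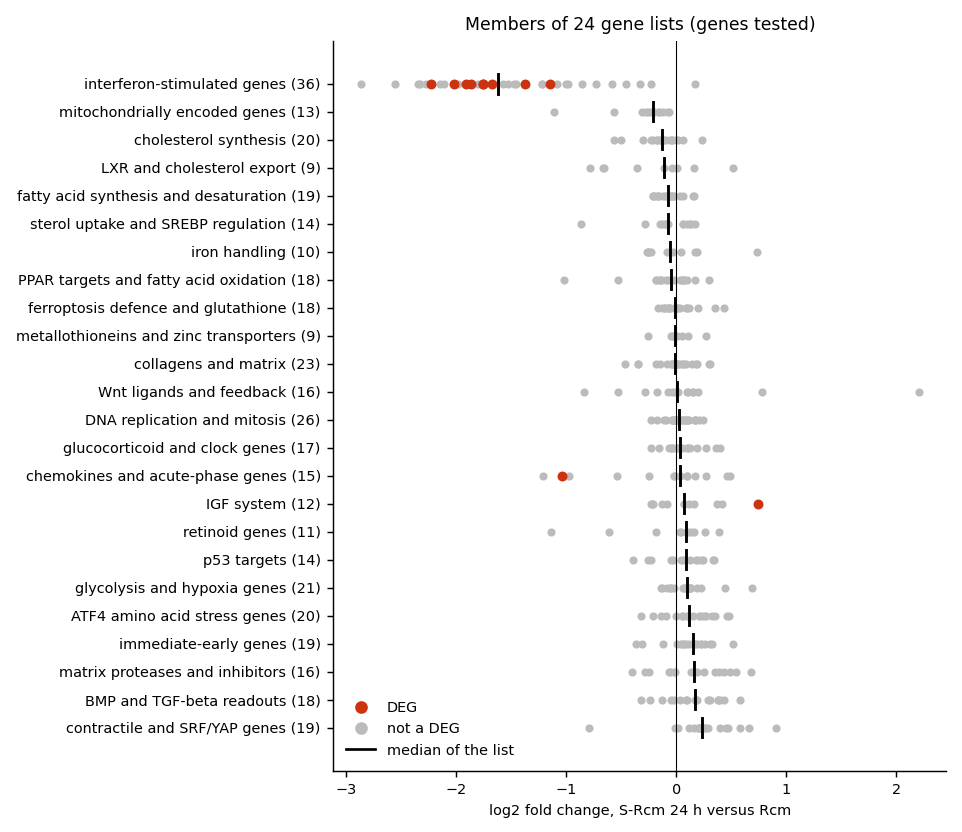
Each row is 1 of 24 gene lists with the number of its genes tested, each point 1 gene, the x axis its log2 fold change of S-Rcm 24 h over Rcm, and the black bar the median of the list. The interferon-stimulated genes stand apart with a median of -1.62, and the medians of the other 23 lists lie between -0.21 and 0.23.

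Markers of cell types were read in the same 6 libraries. Of 12 fibroblast markers 11 were above 1 CPM and Lum was below, with summed levels of 11390 to 14170 CPM in S-Rcm 24 h and 12798 to 13524 CPM in Rcm. The 7 epithelial and 6 endothelial markers were all under 1 CPM. Of 8 blood and macrophage markers 3 were above 1 CPM, Cd68, Cd14 and Hba-a1. The sums were 16.6 to 17.7 CPM against 12.5 to 16.9 CPM, with Adgre1 at 0, and Ptprc, Csf1r, Lyz2 and Hbb-bs under 1 CPM. Of 6 neural markers 4 were above 1 CPM, Sox2, Nes, Tubb3 and Map2 (sums 109 to 126 against 108 to 128 CPM, with Sox10 at 0). Of 5 adipocyte markers 1 was, Fabp4 (sums 1.01 to 1.33 against 1.02 to 2.46 CPM). Of 6 muscle markers 1 was above 1 CPM, Acta1, and Myod1 and Myog were at 0. The summed muscle markers were 3.8 to 5.54 CPM in S-Rcm 24 h and 1.37 to 1.98 CPM in Rcm, and their part in the result was not tested. No marker was a DEG. In RNA of whole cultures, fewer cells that express a gene and less RNA of it per cell cannot be told apart.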

How the data were processed

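RNA-seq counts of 18 MEF libraries were used, 3 for each of 6 groups named by the sample labels. The authors extracted total RNA with the RNeasy mini kit, prepared paired-end mRNA libraries, read them on a NovaSeq instrument and mapped the reads with HISAT2 to GRCm38. They deposited read counts for 55487 genes, as whole numbers without normalization. The counting tool, its use of strand and its treatment of reads with several alignments are not given in the sources used here. All count columns were assigned to samples from their names, and 0 were left out.

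The 15381 genes kept by edgeR's filterByExpr were scaled with TMM. They were fitted in 1 robust quasi-likelihood model of the 18 libraries (12 residual degrees of freedom). The thresholds follow the study's methods, with edgeR in place of DESeq2. S-Rcm 24 h against Rcm is not among the comparisons that those methods list, nor are S-Rcm 12 h against Rcm, S-Rcm 24 h against 12 h and the difference between exchanges. Log2 CPM used a prior count of 2. Total counts ran from 14534906 to 20313715 over the 18 libraries. Within S-Rcm 24 h and Rcm, pairs of replicates differed beyond sampling noise (chi-square over its degrees of freedom, 10.6 to 36.5). Limits given for counts of 0 hold for counting error alone.

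The DEGs are named, with those members of 24 gene lists that had the highest or lowest log2 fold change or bear on a result, except for 1 DEG and a few list members that are not reported here. The members and lists were chosen with earlier results of these data known. Gene coordinates came from GENCODE M21, which held 55141 of the 55487 identifiers, and promoters from RefSeq. Near copies were sought with blastn over at least 200 bases at 95% identity. The statistics were checked on simulated data. Alternatives were an adjusted p under 0.01 or without a fold threshold, RLE or upper-quartile scaling, no filter or a mean of 10 counts, a replicate block, DESeq2, the compared groups alone, and each library left out. DESeq2 with each library left out was added after seeing the data. The software was edgeR 4.0.16 and DESeq2 1.42.0 in R 4.3.3, and blastn 2.17.0 and matplotlib 3.10.9 with Python 3.11.15.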

Additional observations from a re-analysis of the deposited data

Results flagged for a closer look

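For 32 named genes the distance from the steady culture of the present medium differed between the exchanges. It was tested in edgeR as S-Rcm 24 h over Rcm minus R-Scm 24 h over Scm, at an adjusted p under 0.05. This difference also holds the gap between the steady cultures. It does not measure the effect of an exchange from its starting medium. Among the lower DEGs the log2 differences were Oas1g (-5.17), Ifi44 (-5.02), Ifit3 (-4.38), Cmpk2 (-4.23), Gbp9 (-4.12), Iigp1 (-3.94), Isg15 (-3.79), Rtp4 (-3.56), Ifi207 (-3.51), Apol9a (-3.42), Igtp (-3.40), Gbp2 (-3.21), Irf7 (-3.06), Bst2 (-2.995), Pcdh17 (-2.76), Dhx58 (-2.74), Cxcl10 (-2.55), Tap1 (-2.22), Kirrel (-2.12), Rnf213 (-1.91), H2-Q4 (-1.85), Ifi35 (-1.41) and Fmnl1 (-0.91). Among the higher DEGs they were Tafa5 (2.28), Cckar (2.13), Slc6a4 (2.07), Six2 (1.42) and Stmn2 (1.04). For 4 genes that were no DEGs against Rcm in edgeR the differences were Oas2 (-6.62), Ccl5 (-3.26), Aldh1a1 (-3.20) and Hadhb (-1.83). Oas2 is an oligoadenylate synthetase, Ccl5 a chemokine, Aldh1a1 a retinaldehyde dehydrogenase and Hadhb a subunit of the mitochondrial enzyme of fatty acid oxidation. R-Scm 24 h replicate 1, which stood apart from the other two libraries of its group, enters all these differences. Without it the test of the difference gave 116 DEGs in place of 144 over all genes, and 26 in place of 31 of the 36 interferon-stimulated genes. The sizes above also rest on it in part. Without it 9 of the 32 differences moved by more than 1.5-fold, all toward 0: Oas2 to -5.01, Oas1g to -4.25, Ifi44 to -4.19, Ifit3 to -3.56, Rtp4 to -2.79, Igtp to -2.71, Bst2 to -2.37, Irf7 to -2.36 and Dhx58 to -2.11. Of the 32 genes 28 kept their call, and Ifi207 (adjusted p = 0.0565 in edgeR), Kirrel (0.106), Six2 (0.0751) and Hadhb (0.0687) lost it. Oas2 was at 8.13 CPM in this library and at most 1.14 CPM in the other two of R-Scm 24 h.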

How the results depend on the processing

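The number of DEGs between S-Rcm 24 h and Rcm, 34 in the edgeR fit of all libraries (10 higher, 24 lower), was 3 (1 higher, 2 lower) at an adjusted p under 0.01, 108 (29 and 79) with DESeq2 on 18 libraries, 46 (8 and 38) with edgeR and 150 (39 and 111) with DESeq2 on the compared groups alone. With the replicate block it was 36, of which 28 were among the 34. The block used the numbers in the titles, by which same-numbered libraries of the groups correlated at 0.17, -0.06 and 0.13, without clear pairing. By the numbers of the count columns, S-Rcm 24 h replicate 2 would pair with Rcm replicate 3, at a correlation of 0.12. With a library left out the number of DEGs ran from 0 to 38 in edgeR (0 to 12 higher, 0 to 26 lower) and from 58 to 220 in DESeq2 (17 to 90 higher, 39 to 130 lower).

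In the order adjusted p under 0.01, DESeq2 on 18 libraries, edgeR on the compared groups and DESeq2 on the compared groups, the numbers that moved by more than 1.5 times were 7, 133, 90 and 230 for S-Rcm 24 h against Scm (main 52). For Rcm against Scm (354) they were 170 and, with DESeq2 on the groups, 592. For S-Rcm 12 h against Rcm (134) they were 34 and, with DESeq2, 308 and 357. For S-Rcm 24 h against 12 h (24) they were 8, 92 and 117, and for the difference between exchanges (144) 71, 271 and 252. With a library left out these 5 ran from 6 to 28, 178 to 574, 27 to 209, 8 to 16 and 80 to 233.

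The sign of 3 genes that were no DEGs turned with a library left out, with edgeR and with DESeq2: over these fits the log2 ratio ran from -0.009 to 0.28 for Irf1, -0.256 to 0.075 for mt-Co3 and -0.468 to 0.154 for Slc7a11. No DEG changed sign. The cause of these shifts was not tested. The depth of 3 libraries per group limits genes with few counts, such as Oas1g and Ifi207.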
